A study of Mus musculus with 12 samples.

Results

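The ABC efflux pumps of hepatocytes, which move bile constituents, conjugated drugs and sterols out of the cell, were followed as 10 genes across 4 groups of mouse livers. The genes, Abcc2, Abcc3, Abcc4, Abcg2, Abcb4, Abcb11, Abcb1a, Abcg5, Abcg8 and Abca8a, were fixed by name, and each was read from the probe sets (the groups of short probes that report 1 transcript on an Affymetrix array) annotated to that gene alone. All 10 were measured, among 18193 genes in all, by 11 probe sets, since Abcb1a had 2. Gene positions are RefSeq's on GRCm38.p6. Where a gene had several probe sets, the one with the highest mean over the 12 arrays was used.

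The groups were Nrf2 null livers with CDDO-Im, Nrf2 null livers with vehicle, wild type livers with CDDO-Im and wild type livers with vehicle, each with 3 arrays. CDDO-Im is a synthetic triterpenoid known to activate Nrf2, a regulator of antioxidant and drug-clearing genes whose own gene is Nfe2l2. The mice were male, the compound (a dose of 30, which the labels give in uM/kg) or vehicle was given by gavage, and the labelled time is 6 hours. Strain, age, the make-up of the vehicle and the kind of null allele are not given in the sources used here, nor is it stated that arrays came from separate animals, so the p-values measure only the spread among these samples, which may be technical. All 6 vehicle titles carry a bracketed mark that no CDDO-Im title carries, and an effect of what it stands for cannot be told apart from that of CDDO-Im.

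Hepatocytes have a canalicular face, turned to bile, and a sinusoidal face, turned to blood, and each carries its own ABC pumps. On the canalicular face Abcb11 exports bile salts, Abcb4 flips phosphatidylcholine into bile, Abcg5 and Abcg8 together export sterols, and Abcc2 and Abcg2 export conjugates and drugs. On the sinusoidal face Abcc3 and Abcc4 send glucuronides, bile acids and other organic anions back to blood. Nrf2 is known for inducing several Abcc genes in mouse liver, and the bile acid receptor FXR for inducing Abcb11 and Abcb4.

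Promoter sequences are shown as examples, chosen with the expression values known, for 2 of the 4 members with a match to the core of the antioxidant response element (the DNA site of Nrf2) and for the Abcg5 and Abcg8 pair, which face away from each other with 109 bases between their start sites. They are RefSeq sequences on GRCm38.p6, stop at the base before the start site, and are written 5′ to 3′ on the strand of the gene, with each core match in capitals.
Abcc2, chr19:43782058-43782307, + strand: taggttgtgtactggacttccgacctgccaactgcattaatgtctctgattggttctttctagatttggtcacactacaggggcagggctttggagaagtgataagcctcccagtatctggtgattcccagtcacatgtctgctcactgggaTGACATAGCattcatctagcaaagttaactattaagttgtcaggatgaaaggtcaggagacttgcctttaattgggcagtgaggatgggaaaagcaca
Abcc4, chr14:118706220-118706469, - strand: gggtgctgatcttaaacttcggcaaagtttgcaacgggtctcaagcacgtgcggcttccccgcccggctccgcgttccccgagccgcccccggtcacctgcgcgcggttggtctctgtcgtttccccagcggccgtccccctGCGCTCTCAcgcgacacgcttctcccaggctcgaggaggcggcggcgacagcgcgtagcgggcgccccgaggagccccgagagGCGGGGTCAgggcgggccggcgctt
Abcg5 to Abcg8, chr17:84683012-84683120, + strand (the strand of Abcg8): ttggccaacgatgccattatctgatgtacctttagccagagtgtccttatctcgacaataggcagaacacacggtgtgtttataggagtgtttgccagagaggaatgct

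Both strands were searched for 2 spellings of the core, TGACNNNGC and TGAGNNNGC, in windows of 250 bases before and 50 bases after each annotated start. The spellings cannot occupy the same bases on 1 strand. Of the 10 genes 9 had 13 such windows, and Abcc3 is named here without one. Among all 32851 windows in the RefSeq table, 12.4% held the C spelling and 17.6% the G spelling. Abcc2 held the C spelling from base -98. Abcc4 held the G spelling from base -108 and the C spelling from base -25, both on the strand opposite to the gene, and the C spelling again from base -23 of a second start. Abcb1a held the C spelling from base 27 after its start, and Abcg8 the G spelling from base -207 of a second start. The nuclear receptor repeats searched, the inverted repeat with a 1 base gap and the direct repeats with gaps of 1 and 4 bases, were found in no window of the 10 genes and in 0.00913%, 0.0396% and 0.0152% of all windows. A match describes letters and does not show that a factor binds there, and no relation between matches and expression was tested.

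The targeted gene was read as a check. Nfe2l2 was 4.78, 4.96 and 4.93 in Nrf2 null livers with CDDO-Im and 4.83, 4.87 and 4.44 in Nrf2 null livers with vehicle, against 8.37, 9.14 and 8.67 in wild type livers with CDDO-Im and 8.51, 8.60 and 8.69 in wild type livers with vehicle (log2 intensity). The array medians lay between 5.77 and 5.83. A second, dimmer probe set of Nfe2l2 lay below the array median on all 12 arrays and was not lower in Nrf2 null livers. Its Nrf2 null minus wild type difference was 0.24 with CDDO-Im and 0.14 with vehicle (limma adjusted p = 0.486 and 0.675, over all probe sets naming 1 gene). Markers of pancreatic acinar cells, with 8 of 10 measured, summed to 85.7 in wild type vehicle replicate 3 and to 72.1 in Nrf2 null vehicle replicate 2, against 50.1 to 52.8 on the other 10 arrays (log2 summed over the markers). Hepatocyte markers, with 6 of 6 measured, summed to 71.7 to 73.4 in Nrf2 null livers with CDDO-Im, 72.5 to 72.8 in Nrf2 null livers with vehicle, 71.0 to 71.6 in wild type livers with CDDO-Im and 71.3 to 72.3 in wild type livers with vehicle. Among these markers Ass1 was read by a dim probe set (4.13 to 4.41), below the array median on all 12 arrays. Of the 10 transporters 9, all but Abcc4, were highest of their group in wild type vehicle replicate 3, so results in wild type are also given without that array. That choice used the members' own values. Leaving the array out therefore raises the wild type CDDO-Im difference of these 9, and lowers their interaction with genotype, by construction.

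**Figure D1:**
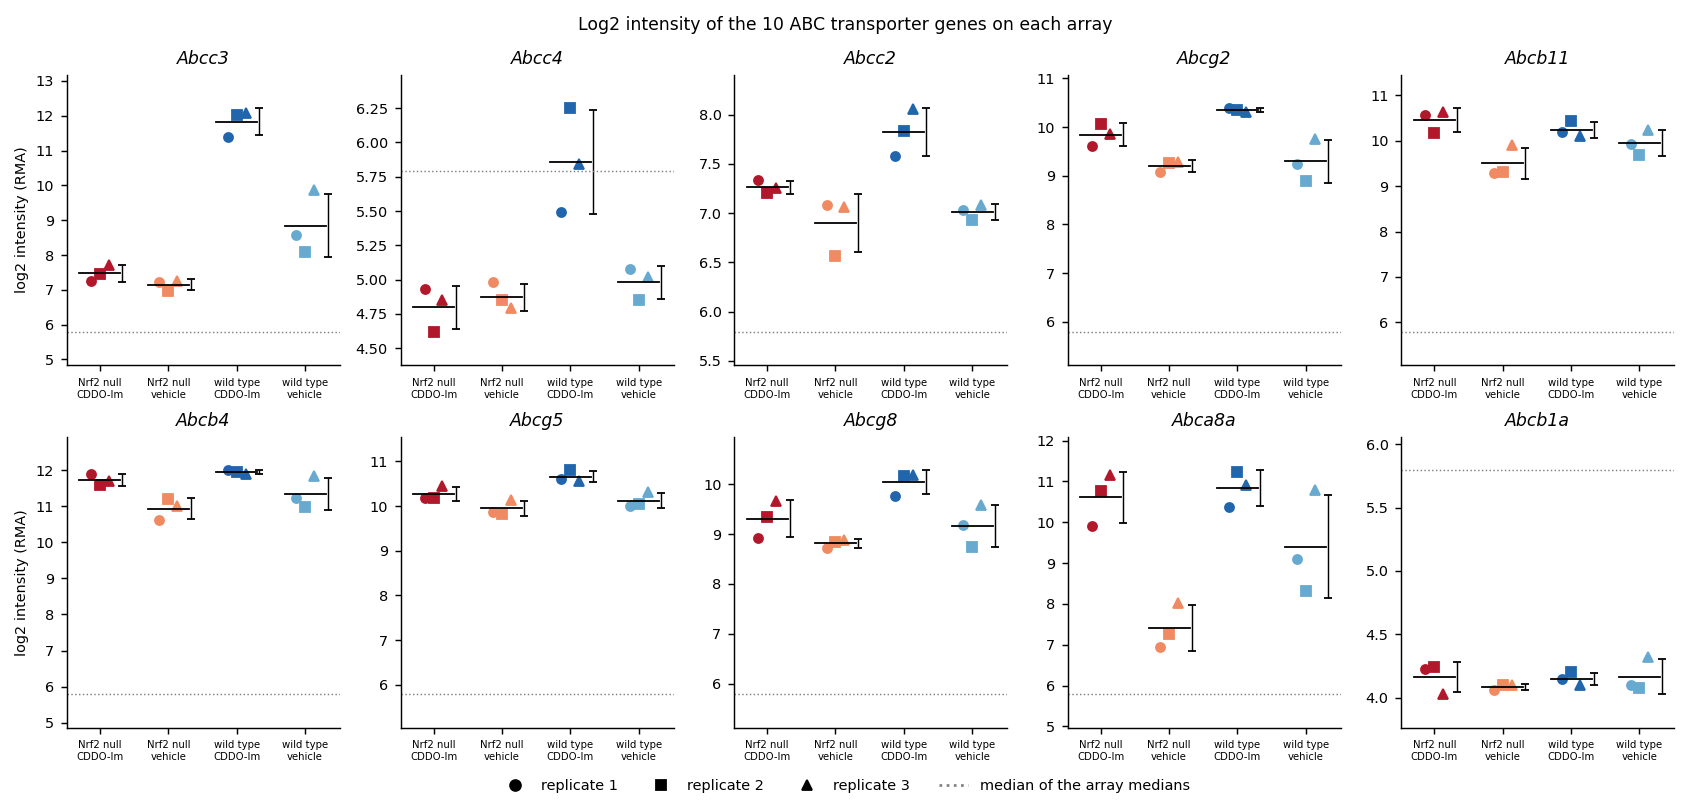
Log2 intensity (vertical axis, its range set for each gene) of the 10 genes on each of the 12 arrays, with marker shapes for the replicates, lines for group means and bars for SD (n = 3). Abcc3 and Abcc4 stand highest in wild type livers with CDDO-Im, Abca8a stands lowest in Nrf2 null livers with vehicle, and wild type vehicle replicate 3 (triangles) lies above its group in 9 panels.

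With CDDO-Im 3 of the 10 pumps rose in Nrf2 null livers and 5 others rose in wild type livers. Calls rest on limma's two-sided moderated test on all 12 arrays, with p-values adjusted by Benjamini-Hochberg over 18193 genes and a threshold of 0.05. In Nrf2 null livers Abca8a, Abcb11 and Abcb4 rose, where 5.9% of all genes were called and 3.58% were called higher. In wild type Abcc3, Abcc4, Abcc2, Abcg2 and Abcg5 rose, where 1.82% of all genes were called and 0.978% were called higher. No member fell in either genotype. The median difference over the 10 genes was 0.43 in Nrf2 null livers, beside 0.00 over all genes, and 0.84 in wild type livers, beside 0.01 over all genes. All 3 CDDO-Im arrays lay above all 3 vehicle arrays for 7 of 10 members in Nrf2 null livers and for 7 of 10 in wild type, beside 11.6% and 8.42% of all genes. The members were chosen with earlier results of these data known, so shares above those of all genes, here and below, are no independent result. The values are levels in whole liver, where fewer cells of a type and less RNA per cell cannot be told apart.

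The division of these calls between the genotypes was not itself shown. No member passed limma's test of the interaction, the Nrf2 null effect of CDDO-Im minus the wild type effect, for which 0.137% of all genes were called. At an unadjusted p under 0.05 there were 5 of 10 members, against 7.1% of all genes. The interaction was negative for 6 members and positive for 4, and negative for 7 and positive for 3 without wild type vehicle replicate 3 or with array weights, where Abcb4 turned sign.

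**Figure D2:**
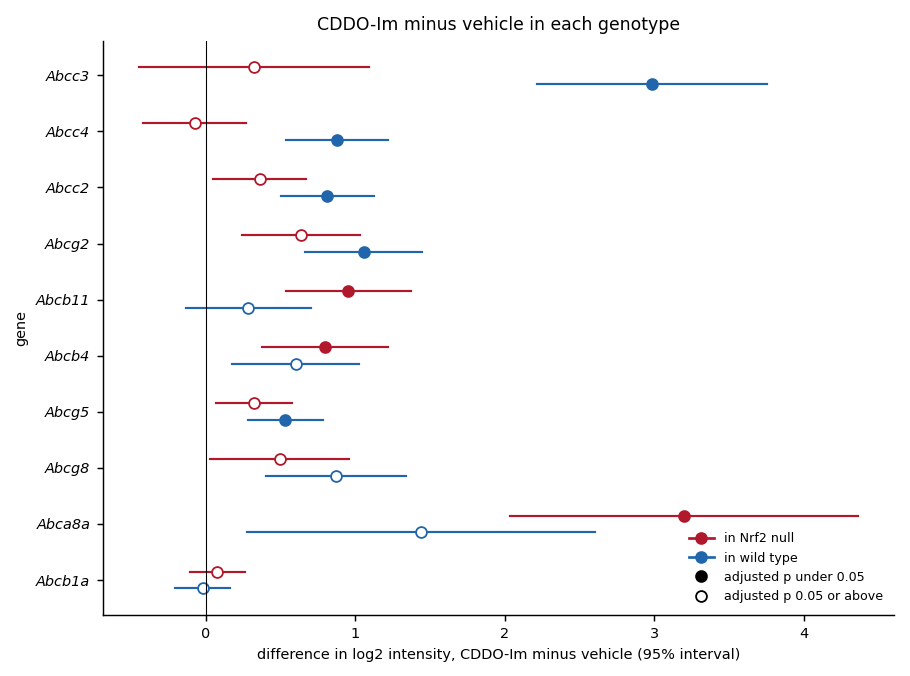
Difference in log2 intensity between CDDO-Im and vehicle (horizontal axis) for each gene in Nrf2 null (upper mark) and wild type livers (lower mark), with 95% intervals from limma, filled where the adjusted p was under 0.05. Filled marks are those of Abca8a, Abcb11 and Abcb4 in Nrf2 null livers and of Abcc3, Abcc4, Abcc2, Abcg2 and Abcg5 in wild type, the farthest from 0 being Abca8a (3.20) and Abcc3 (2.98).

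Abcc3, the sinusoidal exporter of glucuronides (Entrez Gene 76408, chr11:94343295-94393017), had the largest CDDO-Im effect of the members in wild type and its lowest levels in Nrf2 null livers. It read 7.24, 7.46 and 7.72 in Nrf2 null livers with CDDO-Im and 7.23, 6.97 and 7.26 in Nrf2 null livers with vehicle (log2 intensity). In wild type livers it read 11.38, 12.02 and 12.09 with CDDO-Im and 8.58, 8.10 and 9.86 with vehicle. Every Nrf2 null array thus lay below every wild type array, and the treated and vehicle arrays overlapped in Nrf2 null livers only. The CDDO-Im difference was 0.32 ± 0.35 in Nrf2 null livers (SE, limma adjusted p = 0.702, 95% interval -0.45 to 1.09) and 2.98 ± 0.35 in wild type livers (SE, 7.91-fold, limma adjusted p = 0.000941). The wild type call held whichever array was left out, with differences from 2.61 to 3.49.

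Between genotypes Abcc3 was 20.5-fold lower in Nrf2 null livers than in wild type livers under CDDO-Im (log2 difference -4.36 ± 0.35, SE, limma adjusted p = 4.85e-05), a call that held whichever array was left out. With vehicle the difference was -1.69 ± 0.35 and did not pass (limma adjusted p = 0.0727). Without wild type vehicle replicate 3, which read 1.52 above the mean of replicates 1 and 2, it was -1.19 (adjusted p = 0.0261), and without replicate 2 it also passed. No other fit with an array left out gave a call for this difference (highest limma adjusted p = 0.23). Without both arrays high in acinar markers it was -1.09 and did not pass (limma adjusted p = 0.079). The interaction was -2.66 ± 0.50 (limma adjusted p = 0.118), and without wild type vehicle replicate 3 it was -3.17 ± 0.29 (adjusted p = 0.000314), the only member called for the interaction there, beside 0.253% of all genes. That array was singled out by the members' own values, Abcc3 among them, so its removal lowered this interaction by construction. Group means were 7.47 ± 0.24 in Nrf2 null livers with CDDO-Im, 7.15 ± 0.16 in Nrf2 null livers with vehicle, 11.83 ± 0.39 in wild type livers with CDDO-Im and 8.85 ± 0.91 in wild type livers with vehicle (SD, n = 3 each), and the 2 Nrf2 null groups overlapped.

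Abcc4, a sinusoidal exporter of bile acids and cyclic nucleotides (Entrez Gene 239273, chr14:118482692-118707856) and read by a dim probe set, rose with CDDO-Im in wild type. It read 4.93, 4.62 and 4.85 in Nrf2 null livers with CDDO-Im and 4.98, 4.85 and 4.79 in Nrf2 null livers with vehicle. The wild type values were 5.49, 6.25 and 5.84 with CDDO-Im and 5.08, 4.85 and 5.02 with vehicle. The 3 wild type arrays with CDDO-Im lay above the other 9, which overlapped. Of the 12 values 10 lay below their array's median, so the sizes are uncertain and no fold is given. The CDDO-Im difference was -0.07 ± 0.16 in Nrf2 null livers (SE, limma adjusted p = 0.864, 95% interval -0.42 to 0.27) and 0.88 ± 0.16 in wild type livers (limma adjusted p = 0.0159). The wild type call ended without wild type vehicle replicate 1 or 2 or wild type CDDO-Im replicate 3 (highest adjusted p = 0.0869). Under CDDO-Im Abcc4 was lower in Nrf2 null livers than in wild type, with a difference of -1.06 ± 0.16 (limma adjusted p = 0.00484), and this call held whichever array was left out.

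Abcc2, the canalicular exporter of bilirubin glucuronides and glutathione conjugates (Entrez Gene 12780, chr19:43782308-43838332), rose 1.76-fold in wild type. It read 7.34, 7.20 and 7.25 in Nrf2 null livers with CDDO-Im and 7.08, 6.56 and 7.06 in Nrf2 null livers with vehicle. Wild type livers read 7.58, 7.83 and 8.06 with CDDO-Im and 7.03, 6.93 and 7.08 with vehicle. In both genotypes the treated arrays lay above the vehicle arrays, and the vehicle arrays of the genotypes overlapped. The differences were 0.36 ± 0.14 in Nrf2 null livers (SE, limma adjusted p = 0.182) and 0.81 ± 0.14 in wild type livers (limma adjusted p = 0.0145). Without Nrf2 null vehicle replicate 2 (6.56), an array high in acinar markers, the Nrf2 null difference was 0.19 (limma adjusted p = 0.509). The wild type call ended without wild type vehicle replicate 1 or 2 or wild type CDDO-Im replicate 2 or 3 (highest adjusted p = 0.0793). Under CDDO-Im the Nrf2 null arrays lay below the wild type arrays, with a difference of -0.56 ± 0.14, which did not pass with all arrays (limma adjusted p = 0.0896). It passed without Nrf2 null vehicle replicate 2 (limma adjusted p = 0.0341) and without both arrays high in acinar markers (limma adjusted p = 0.0257). Those arrays enter it only through the shared estimate of the spread.

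Abcg2, the canalicular exporter of sulphated conjugates and many drugs (Entrez Gene 26357, chr6:58584491-58692451), rose 2.08-fold in wild type. It read 9.61, 10.07 and 9.86 in Nrf2 null livers with CDDO-Im and 9.07, 9.27 and 9.28 in Nrf2 null livers with vehicle. In wild type it read 10.39, 10.35 and 10.32 with CDDO-Im and 9.24, 8.89 and 9.76 with vehicle. The treated arrays lay above the vehicle arrays in both genotypes. The differences were 0.64 ± 0.18 in Nrf2 null livers (SE, limma adjusted p = 0.0607, 95% interval 0.24 to 1.03) and 1.06 ± 0.18 in wild type livers (limma adjusted p = 0.0123). The Nrf2 null difference passed without wild type vehicle replicate 2 or 3, arrays that enter it only through the shared estimate of the spread (lowest adjusted p = 0.00689). The wild type call ended without wild type vehicle replicate 1 or wild type CDDO-Im replicate 2 (highest adjusted p = 0.0694). The interaction was -0.42 ± 0.25 (limma adjusted p = 0.812, 95% interval -0.97 to 0.14).

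Abcb11, the bile salt export pump (Entrez Gene 27413, chr2:69238282-69342616), rose 1.94-fold with CDDO-Im in Nrf2 null livers. It read 10.57, 10.16 and 10.63 in Nrf2 null livers with CDDO-Im and 9.29, 9.31 and 9.90 in Nrf2 null livers with vehicle, without overlap. It read 10.18, 10.42 and 10.09 in wild type livers with CDDO-Im and 9.92, 9.68 and 10.24 in wild type livers with vehicle, which overlapped. The differences were 0.95 ± 0.19 in Nrf2 null livers (SE, limma adjusted p = 0.017) and 0.29 ± 0.19 in wild type livers (limma adjusted p = 0.596, 95% interval -0.13 to 0.70). The Nrf2 null call ended without Nrf2 null vehicle replicate 1 or 2 or Nrf2 null CDDO-Im replicate 3 (highest adjusted p = 0.0779). With vehicle the Nrf2 null minus wild type difference was -0.45 ± 0.19 and did not pass (limma adjusted p = 0.343). Abcb11 lies 6.33 Mb from Nfe2l2 on GRCm38.p6.

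Abcb4, the phosphatidylcholine flippase of the canaliculus (Entrez Gene 18670, chr5:8893614-8959226), rose 1.74-fold in Nrf2 null livers. It read 11.91, 11.59 and 11.71 in Nrf2 null livers with CDDO-Im and 10.62, 11.19 and 11.01 in Nrf2 null livers with vehicle. In wild type it read 11.997, 11.95 and 11.89 with CDDO-Im and 11.23, 10.98 and 11.83 with vehicle. The groups did not overlap in either genotype. The differences were 0.80 ± 0.19 in Nrf2 null livers (SE, limma adjusted p = 0.0352) and 0.60 ± 0.19 in wild type livers (limma adjusted p = 0.162). Without wild type vehicle replicate 3 the wild type difference was 0.84 ± 0.15 and passed (adjusted p = 0.00455). The Nrf2 null call ended without any 1 of the 6 Nrf2 null arrays or without wild type CDDO-Im replicate 2 or 3 (highest adjusted p = 0.136). Wild type arrays enter that call only through the shared estimate of the spread. The interaction was 0.20 ± 0.27 (limma adjusted p = 0.944, 95% interval -0.40 to 0.80).

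Abcg5 and Abcg8, whose products pair to export cholesterol and plant sterols into bile, lie side by side on chromosome 17, where the annotated genes overlap by way of a second start of Abcg8. Abcg5 (Entrez Gene 27409, chr17:84658174-84683011) read 10.19, 10.17 and 10.44 in Nrf2 null livers with CDDO-Im and 9.87, 9.83 and 10.13 in Nrf2 null livers with vehicle. In wild type livers Abcg5 read 10.60, 10.80 and 10.57 with CDDO-Im and 10.01, 10.05 and 10.31 with vehicle. The treated arrays lay above the vehicle arrays in both genotypes. Abcg5 differed by 0.32 ± 0.12 in Nrf2 null livers (SE, limma adjusted p = 0.136) and rose by 0.53 ± 0.12 in wild type livers (1.45-fold, limma adjusted p = 0.0429). This call held in 3 of 12 fits with an array left out, those without wild type vehicle replicate 3, Nrf2 null vehicle replicate 3 or Nrf2 null CDDO-Im replicate 3 (highest adjusted p = 0.204, without wild type vehicle replicate 1). Nrf2 null arrays enter that call only through the shared estimate of the spread.

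Abcg8 (Entrez Gene 67470, chr17:84676302-84700333) read 8.93, 9.34 and 9.66 in Nrf2 null livers with CDDO-Im and 8.72, 8.84 and 8.89 in Nrf2 null livers with vehicle. In wild type livers it read 9.76, 10.17 and 10.19 with CDDO-Im and 9.18, 8.74 and 9.58 with vehicle. Again the treated arrays lay above the vehicle arrays in both genotypes, by 0.49 ± 0.21 in Nrf2 null livers (SE, limma adjusted p = 0.227) and 0.87 ± 0.21 in wild type livers (limma adjusted p = 0.0654), and neither passed. The wild type difference passed without wild type vehicle replicate 3 (1.08, adjusted p = 0.00586). It also passed without Nrf2 null CDDO-Im replicate 1, which enters it only through the shared estimate of the spread. Under CDDO-Im the Nrf2 null arrays of both genes lay below the wild type arrays, with differences of -0.39 ± 0.12 for Abcg5 and -0.73 ± 0.21 for Abcg8 (limma adjusted p = 0.16 and 0.147).

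Abca8a, a member of the A subfamily whose human relative ABCA8 has been linked to cholesterol efflux (Entrez Gene 217258, chr11:110025634-110097580), had the largest CDDO-Im effect of the members in Nrf2 null livers, 9.19-fold. It read 9.92, 10.77 and 11.15 in Nrf2 null livers with CDDO-Im and 6.94, 7.26 and 8.03 in Nrf2 null livers with vehicle, far apart. Wild type livers read 10.37, 11.23 and 10.91 with CDDO-Im and 9.10, 8.31 and 10.78 with vehicle, where replicate 3 lay within the treated range. The differences were 3.20 ± 0.53 in Nrf2 null livers (SE, limma adjusted p = 0.0109) and 1.44 ± 0.53 in wild type livers (limma adjusted p = 0.235). Without wild type vehicle replicate 3 the wild type difference was 2.13 ± 0.40 and passed (adjusted p = 0.00548). The Nrf2 null call ended without Nrf2 null CDDO-Im replicate 3 (adjusted p = 0.0546).

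Neither genotype difference of Abca8a passed. With vehicle the 3 Nrf2 null arrays were lower than the 3 wild type arrays, with a difference of -1.98 ± 0.53 (limma adjusted p = 0.141), or -1.29 without wild type vehicle replicate 3 (adjusted p = 0.141). With CDDO-Im the groups overlapped and differed by -0.23 ± 0.53 (limma adjusted p = 0.95, 95% interval -1.39 to 0.94). The interaction was 1.76 ± 0.75 (adjusted p = 0.668), and 1.07 without wild type vehicle replicate 3 (adjusted p = 0.634).

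Abcb1a, which encodes a P-glycoprotein that exports many drugs (Entrez Gene 18671, chr5:8567091-8748575, 145 kb from Abcb4), lay below the array median on all 12 arrays by both probe sets. Its brighter probe set read 4.03 to 4.32 and the other 3.92 to 4.15. The CDDO-Im difference of the brighter one was 0.08 ± 0.08 in Nrf2 null livers (SE, limma adjusted p = 0.696) and -0.02 ± 0.08 in wild type livers (limma adjusted p = 0.965). No detection call was used, so whether these values lie above background was not tested, and the gene passed in no comparison.

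Between genotypes, 2 of the 10 pumps were called under CDDO-Im, Abcc3 and Abcc4, both lower in Nrf2 null livers, where 1.45% of all genes were called and 0.824% were called lower. Groups did not overlap for 6 members, all lower in Nrf2 null livers, namely Abcc3, Abcc4, Abcc2, Abcg2, Abcg5 and Abcg8, beside 7.82% of all genes. Of the others, Abcb11 read 0.22 ± 0.19 higher in Nrf2 null livers and did not pass (SE, limma adjusted p = 0.79). With vehicle no member passed limma's test, where 0.39% of all genes were called, and 3 of 10 had an unadjusted p under 0.05, against 13.2% of all genes. All 10 differences with vehicle were negative, from -1.98 to -0.08, with a median of -0.27 beside 0.02 over all genes, and groups did not overlap for Abcc3 and Abca8a, beside 8.49% of all genes. This rests in part on wild type vehicle replicate 3, since without it the median was -0.12 and 9 of 10 were negative, Abcg2 being at 0.14. The comparisons under CDDO-Im share their wild type arrays with the CDDO-Im effect in wild type, so the 2 sets of calls are not independent.

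**Figure D3:**
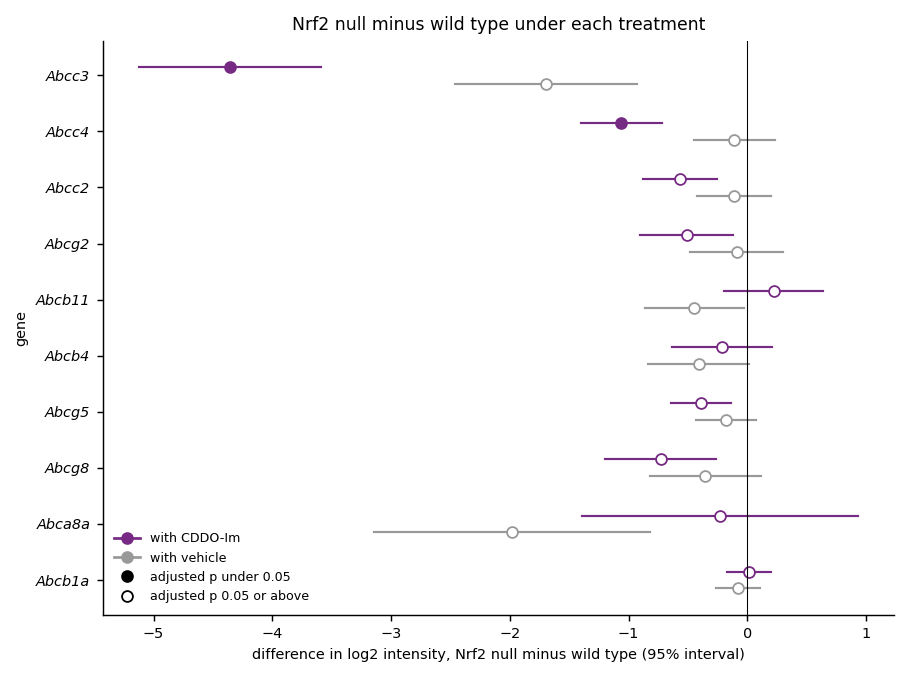
Difference in log2 intensity between Nrf2 null and wild type livers (horizontal axis) with CDDO-Im (upper mark) and with vehicle (lower mark), with 95% intervals from limma, filled where the adjusted p was under 0.05. Only Abcc3 (-4.36) and Abcc4 (-1.06), both with CDDO-Im, are filled.

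Without wild type vehicle replicate 3, the array with the most acinar transcript, 8 of 10 members rose in wild type, beside 7.61% of all genes called. These were the 5 above with Abcg8, Abcb4 and Abca8a. The array was singled out because 9 of the 10 members read highest of their group there. Its removal thus raised their wild type differences by construction, and the added calls are no independent result. Abcb11 stayed at 0.43 ± 0.19 (SE, limma adjusted p = 0.251) and Abcb1a at 0.06 ± 0.08 (limma adjusted p = 0.794). In Nrf2 null livers 4 members rose in that fit, Abcg2 with the other 3, beside 8.88% of all genes. Between genotypes 2 members, Abcc3 and Abcc4, were called with CDDO-Im, beside 2.55% of all genes, and Abcc3 with vehicle, beside 1.2%. Without both arrays that carried acinar transcripts 4 members were again called in Nrf2 null livers, beside 6.35% of all genes, and 8 in wild type, beside 7.11%. The part of the acinar transcripts in the values of replicate 3 was not tested.

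**Figure D4:**
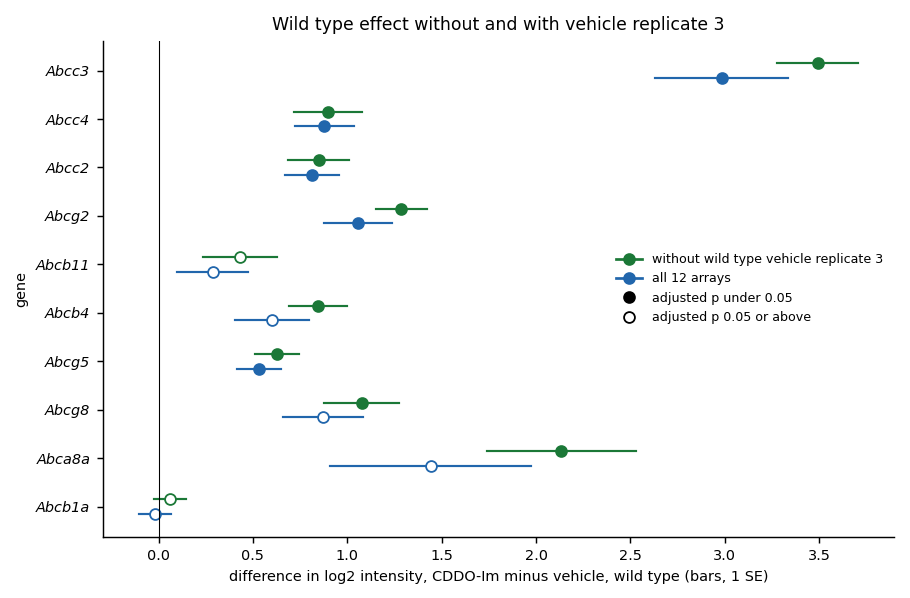
Wild type difference between CDDO-Im and vehicle in log2 intensity (horizontal axis, bars 1 SE) for each gene, without wild type vehicle replicate 3 (upper mark) and with all 12 arrays (lower mark), filled where the adjusted p was under 0.05. Filled marks number 8 without the array and 5 with it, and Abca8a moved most, to 2.13 without the array, against 1.44 with it.

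Of 38 other ABC transporter genes measured, 1 rose and 1 fell with CDDO-Im in each genotype, which is 5.26% of them, beside 5.9% of all genes in Nrf2 null livers and 1.82% in wild type. In Nrf2 null livers Abcd3, a peroxisomal fatty acid transporter, rose by 0.87 ± 0.18 (SE, limma adjusted p = 0.02) and Abca6 fell by 0.57 ± 0.15 (limma adjusted p = 0.0471). In wild type Abcb6, a porphyrin transporter, rose by 1.04 ± 0.19 (limma adjusted p = 0.0194) and Abca1, which loads cholesterol onto apolipoprotein A-I, fell by 0.77 ± 0.17 (limma adjusted p = 0.049). With an array left out these calls held in 9, 3, 7 and 2 of 12 fits, in that order of genes. No other ABC gene passed limma's test between genotypes or for the interaction. An unadjusted p under 0.05 was held between genotypes by 6 of 38 with CDDO-Im and by 5 with vehicle, and by 1 for the interaction, beside 11.3%, 13.2% and 7.1% of all genes. The median CDDO-Im difference over the 38 genes was -0.01 in Nrf2 null livers and 0.02 in wild type. Without wild type vehicle replicate 3, 5 of 38 were called in each genotype, beside 8.88% of all genes in Nrf2 null livers and 7.61% in wild type. In Nrf2 null livers they were Abcb6, Abcc6 and Abcd3, higher, with Abca1 and Abca6, lower. In wild type they were Abca8b, Abcb6 and Abcd3, higher, with Abca1 and Tap2, lower.

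**Figure D5:**
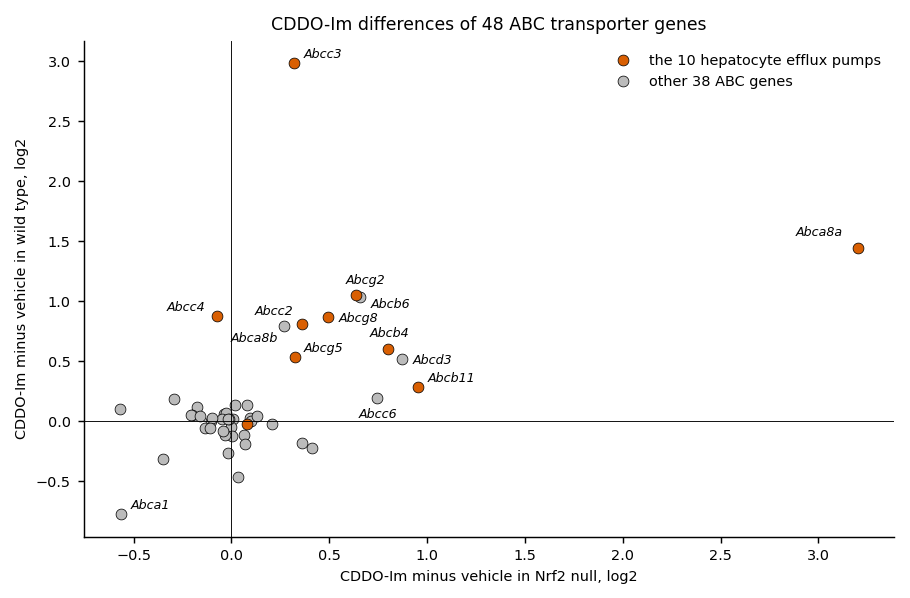
CDDO-Im minus vehicle in log2 intensity in Nrf2 null livers (horizontal axis) and in wild type livers (vertical axis) for the 10 pumps (orange) and 38 other ABC genes (grey), 1 point a gene. Abcc3 lies high on the vertical axis (2.98) with 0.32 on the horizontal axis, Abca8a lies at 3.20 and 1.44, and most other ABC genes lie near 0 on both axes.

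Of 28 listed partners and regulators of the pumps (uptake carriers, scaffold proteins and nuclear receptors) 25 were measured. In Nrf2 null livers 6 rose with CDDO-Im and none fell, beside 5.9% of all genes called, with Slco1a1, an organic anion uptake carrier, at 1.14, Ppara, the fatty acid receptor, at 1.22, Slco1b2, another uptake carrier, at 0.62, and Nr1i3, the receptor CAR, at 0.77 (limma adjusted p = 0.00958, 0.0106, 0.0242 and 0.0264). Leaving out single arrays brought that count to between 0 and 8. In wild type none of the 25 passed limma's test, beside 1.82% of all genes, and 11 had an unadjusted p under 0.05, beside 13.6% of all genes. Without wild type vehicle replicate 3, 4 passed in wild type, beside 7.61% of all genes. They were Slco1a1, Slc47a1 and Nr1i3, higher, and Atp8b1, lower, and these are named after their values were seen. Between genotypes Ppara was lower in Nrf2 null livers with vehicle (-1.13, limma adjusted p = 0.0414). With CDDO-Im Slc22a7, an organic anion carrier, was higher in Nrf2 null livers (1.12, adjusted p = 0.0332) and Ahr, the dioxin receptor, lower (-0.75, adjusted p = 0.0476). With an array left out these 3 calls held in 5, 7 and 2 of 12 fits.

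Markers of other cells gave few calls, and the markers named here were chosen after their values were seen. Of 5 neutrophil markers measured, S100a8 and S100a9 fell with CDDO-Im in Nrf2 null livers (limma adjusted p = 0.011 and 0.0276). No other neutrophil marker passed there, and the list's median difference was -0.12. The list summed to 30.7 to 31.4 in Nrf2 null livers with CDDO-Im against 32.96 to 34.2 in Nrf2 null livers with vehicle (log2 summed over the markers). In wild type livers it summed to 30.1 to 31.2 with CDDO-Im and 31.3 to 32.4 with vehicle, and no neutrophil marker passed. Of 6 endothelial markers Lyve1 rose with CDDO-Im in wild type (2.26, limma adjusted p = 0.0013) and was lower in Nrf2 null livers under CDDO-Im (-1.92, adjusted p = 0.00412), but the other 5 did not pass in either comparison and the list's median difference was -0.05 and 0.18, in that order. The endothelial list summed to 46.3 to 46.6 in Nrf2 null livers with CDDO-Im and 43.7 to 46.6 in Nrf2 null livers with vehicle, and to 46.4 to 47.3 in wild type livers with CDDO-Im and 44.5 to 46.0 in wild type livers with vehicle. Of 6 Kupffer cell markers Marco was lower in Nrf2 null livers under CDDO-Im (-1.32, adjusted p = 0.0307), where the list's median difference was -0.09. The Kupffer list summed to 49.0 to 49.96 in Nrf2 null livers with CDDO-Im and 45.1 to 49.3 in Nrf2 null livers with vehicle, and to 49.5 to 53.1 in wild type livers with CDDO-Im and 47.4 to 51.9 in wild type livers with vehicle. The part of these markers in the transporters' results was not tested.

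The genes whose profile lay closest to each called member were found by the root mean square difference between centred log2 values over the 12 arrays. For Abcc3 they were Ces1g (0.51), Ugdh (0.69) and Aox1 (0.74), beside an SD of 1.98 for Abcc3 itself. For Abca8a they were Cyp2c50 (0.43), Cyp2c29 (0.46) and Ces1d (0.49), beside an SD of 1.57. Abcb4 lay closest to Faah (0.12), Abcd3 (0.14) and Dipk1a (0.14), and Abcb11 to Tmem135 (0.10), Nfix (0.12) and Naa60 (0.14). Abcc2 lay closest to Abca8b (0.16), P4ha1 (0.16) and Ednrb (0.17), and Abcc4 to Grina, Tex2 and Txn1 (each 0.21). Abcg2 lay closest to Gstp1, Chpt1 and BC052688 (0.16, 0.16 and 0.17), and Abcg5 to Mpc1, Setd3 and Mtmr1 (0.08, 0.10 and 0.10). Members with a small SD lie close to many genes, so the distances are to be read within a member only.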

How the data were processed

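Total RNA of mouse livers was biotin-labelled and hybridised to 12 one-colour Affymetrix arrays. The authors deposited 1 log2 intensity per probe set and array, made with RMA per the submitters' processing notes (no version given), and the log2 scale was read from the values. Of 45101 probe sets, 34945 named 1 gene in the platform annotation. Symbols were checked by Entrez Gene id against GRCm38.p6, and none changed. Values were used as deposited, without a filter on dim genes, and no detection calls were used. The number of arrays limits the precision.

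All 12 arrays and 18193 genes entered 1 fit in limma 3.58.1 (R 4.3.3, statmod 1.5.0) with the group means as terms, from which 5 comparisons were drawn. The fit was tested on simulated data whose noise was alike on every array. That test does not cover arrays that stand apart, such as those high in acinar markers. Differences are in log2 with the model's SE, and group errors are SD over 3 arrays. With 3 against 3 arrays an exact permutation test cannot go below 0.1, so none was used.

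The members and lists were chosen with earlier results of these data known. All members were named. Other ABC genes were named if called (up to 6 per comparison), partners up to 4 per comparison by adjusted p, and marker lists covered 9 cell types. Alternatives left out arrays or changed blocking, weights, normalization, probe sets, filter, prior, fold minimum and threshold.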

Additional observations from a re-analysis of the deposited data

How the results depend on the processing

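With all 12 arrays, 3 members were called for CDDO-Im in Nrf2 null livers, 5 in wild type, 2 between genotypes with CDDO-Im, and 0 between genotypes with vehicle and for the interaction. Leaving out each array in turn gave 0 to 4 in Nrf2 null livers, 1 to 8 in wild type, 2 to 3 between genotypes with CDDO-Im, 0 to 1 with vehicle and 0 to 1 for the interaction. In Nrf2 null livers the count was 5 with array weights, 1 with a 1.2-fold minimum and 0 at an adjusted p under 0.01. In wild type it was 2 with the compared arrays alone, 8 with array weights, 1 with a 1.2-fold minimum and 1 at an adjusted p under 0.01. Without both acinar arrays (those high in acinar markers) it was 8 in wild type, beside 7.11% of all genes. For the interaction it was 1 with the replicate block, beside 20 genes in all, 1 with array weights and 1 without both acinar arrays, Abcc3 each time. Between genotypes with CDDO-Im it was 1 over genes above the median level, a fit in which Abcc4 was too dim to be included. With vehicle it was 1 with the replicate block, beside 80 genes in all, and 2 with array weights. The causes of the other changes were not tested. Calls over all genes also shifted between fits, over the ranges given next, so these counts are not to be read alone. Among the fits that did more than leave out a single array, the total reached 1897 in Nrf2 null livers, 2023 in wild type and 1477 with vehicle. Where no total is given beside a count, whether the members exceeded all genes in that fit was not tested.

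Over all genes, leaving out single arrays gave 97 to 1615 calls in Nrf2 null livers (1074 with all arrays), 104 to 1385 in wild type (332), 151 to 464 between genotypes with CDDO-Im (263), 19 to 219 with vehicle (71) and 15 to 46 for the interaction (25). The other alternatives gave 75 to 1897, 81 to 2023, 86 to 411, 13 to 1477 and 15 to 89, in the same order.

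Replicate numbers are shared by the groups and are not said to pair the arrays. Same-numbered arrays correlated by -0.30 to 0.28 in their deviations, over 0.1 in 4 of 18 pairs. Arrays with other numbers correlated by -0.40 to 0.47, over 0.1 in 13 of 36 pairs. The replicate block gave 3 members called in Nrf2 null livers, 6 in wild type, and 1000 and 323 genes in all. For CDDO-Im in either genotype 4 of 6 arrays correlated best with their own number, and between genotypes 0 of 6 with CDDO-Im and 1 of 6 with vehicle. Whether the numbers pair arrays within a genotype was thus not settled.

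Of 1130 refits of single members, 1033 kept direction and side of the threshold, 48 lost a call, 30 gained one and 19 turned direction, none of them a called value. Abcb1a in wild type turned to 0.028 with array weights, 0.060 without both acinar arrays and 0.00248 with the mean of probe sets, and between genotypes with CDDO-Im to -0.042 with that mean. The Abcb4 interaction turned to -0.014 with array weights. With vehicle between genotypes Abcc2 turned to 0.093 without both acinar arrays, and Abcg2 to 0.00792 with array weights, 0.11 without both acinar arrays and 0.023 with quantile normalization. Leaving out single arrays spanned -0.49 to 0.12 for Abca8a and -0.022 to 0.086 for Abcb1a between genotypes with CDDO-Im, -0.063 to 0.060 for Abcb1a in wild type, -0.046 to 0.38 for the Abcb4 interaction, -0.20 to 0.057 for Abcc2 and -0.29 to 0.14 for Abcg2 between genotypes with vehicle, and -0.14 to 0.015 for Abcc4 in Nrf2 null livers. Dim probe sets (Abcc4, Abcb1a) limit what small differences can show.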
